A study of Homo sapiens with 6 samples.

Results

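DU145 cells repair their DNA with genes of several pathways, and the RNA levels of 38 such genes were compared here between cells treated with vehicle and cells treated with doxycycline (DOX). The 38 genes come from a list of names whose rule uses no measured value, but the list was chosen with earlier results of these data known. They cover mismatch repair, homologous recombination, the damage checkpoint kinases and signalling at break sites. The Fanconi anaemia pathway, end joining, single-strand break repair and nucleotide excision repair are also covered. All 38 were found among the 25528 gene symbols of the expression table, and all 38 passed the minimum mean level for testing, as did 11630 genes in all.

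The cells were DU-145/tet-XISTshRNA cells, a castration-resistant prostate cancer line transduced with a lentiviral short hairpin RNA against the long noncoding RNA XIST that is induced by DOX. The 3 vehicle samples received 0.1% DMSO and the 3 DOX samples received 500 ng/ml DOX, both for 7 days. Every sample thus carried the hairpin construct and the drug selection used to introduce it, and whether the DOX samples also held DMSO is not given in the sources used here. There was no sample of cells with a control hairpin and DOX, so that hairpin induction and DOX itself cannot be told apart. RNA came from cultures grown in triplicate, and p-values measure the spread between these samples.

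Repair pathways divide by the lesion they act on. Mismatch repair corrects replication errors, and DU145 is known as a mismatch repair-deficient line. Double-strand breaks are rejoined by end joining, led by the Ku and DNA-PK proteins, or copied from the sister chromatid by homologous recombination, which needs resected ends and the BRCA proteins. The kinases ATM and ATR signal breaks and stalled replication to CHEK2 and CHEK1. Fanconi proteins act on interstrand crosslinks, PARP1 and XRCC1 on single-strand breaks, and the XPC and ERCC proteins on bulky lesions. Many of these genes are transcribed in S phase under E2F control. RNA levels do not measure the activity of any of these proteins.

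The reads counted on genes, recovered from the deposited values, ranged from 5453536 (vehicle replicate 3) to 64562332 (DOX replicate 1), with 16701704 to 20351568 in the other 4 samples. The 38 genes held 21952 to 223454 reads in those same samples, and each gene had between 36 and 49522 reads in a sample. A small group of short RNAs (RN7SL1, RN7SL2, RN7SL3, RN7SK and RPPH1) held 67.5% to 76.0% of the TPM (transcripts per 1000000) with vehicle and 76.0% to 82.6% with DOX, so levels are given below as TPM scaled by the median of ratios between samples, called scaled TPM. XIST was listed at 0 in all 6 samples, and its silencing could not be measured. Of the cell type markers, all 5 epithelial genes were present (summed level 195 to 257 scaled TPM with vehicle and 281 to 375 with DOX). The prostate luminal markers summed to 8.50 to 9.29 with vehicle and 7.70 to 9.99 with DOX, with 2 of 5 at 0. Fibroblast markers summed to at most 0.626 and leukocyte markers to at most 1.09 in any sample, with 3 and 2 of 5 at 0.

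Promoters were searched for the letters of an E2F-type site, TTTGGCG or TTTCCCG, on either strand. RefSeq (GRCh38.p14) gave a promoter, from 250 bases before to 50 after the start, for 34 of the 38 genes, and not for NBN, PRKDC, XRCC5 and FANCI. The letters were found in 12 of these 34 promoters (35.3%), against 10.2% of the promoters of 8852 tested genes and 6.11% of all 27305 promoters. The holders were MLH3, MSH3, MSH6, PMS1, PMS2, RAD50, ATR, RNF168, FANCD2, XRCC6, PARP1 and XPC. A single start was searched for each gene. For some genes, such as ERCC1 and MSH6, it lies well inside the annotated span of the gene, and starts elsewhere were not covered. A CHR-type element, TTTGAA on either strand, was in 3 of 34 (8.82%; ATM, MDC1 and XRCC1), against 9.29% of tested genes and 15.4% of all promoters. The promoters of RNF168 (chr3:196503719-196504018, minus strand), XRCC6 (chr22:41621045-41621344, plus strand) and PARP1 (chr1:226408044-226408343, minus strand) are printed below, because among the 6 genes whose DOX and vehicle samples did not overlap these are the ones with a match. Each runs from 5′ to 3′ in the direction of its gene, and the capitals mark the E2F-type letters.
RNF168: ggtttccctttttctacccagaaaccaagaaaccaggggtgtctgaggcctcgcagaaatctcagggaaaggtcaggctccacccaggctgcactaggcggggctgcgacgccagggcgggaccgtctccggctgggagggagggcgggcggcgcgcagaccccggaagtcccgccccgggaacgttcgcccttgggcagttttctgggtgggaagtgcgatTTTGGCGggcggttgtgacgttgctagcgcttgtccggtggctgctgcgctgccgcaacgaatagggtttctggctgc
XRCC6: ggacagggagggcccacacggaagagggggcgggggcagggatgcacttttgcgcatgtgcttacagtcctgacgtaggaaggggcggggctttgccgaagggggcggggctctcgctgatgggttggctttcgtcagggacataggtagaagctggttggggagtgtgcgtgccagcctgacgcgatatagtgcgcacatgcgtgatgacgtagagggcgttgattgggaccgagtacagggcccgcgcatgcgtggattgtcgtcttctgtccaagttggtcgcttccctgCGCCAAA
PARP1: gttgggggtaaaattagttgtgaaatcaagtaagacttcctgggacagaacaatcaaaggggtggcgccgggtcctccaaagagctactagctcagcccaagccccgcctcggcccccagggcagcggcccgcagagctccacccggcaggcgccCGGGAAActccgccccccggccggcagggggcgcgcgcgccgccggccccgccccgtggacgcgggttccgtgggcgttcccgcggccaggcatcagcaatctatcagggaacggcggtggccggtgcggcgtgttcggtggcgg
Counted from the start, the match begins at base -28 in RNF168, -95 in PARP1 and 43 in XRCC6. RNF168 was lower and XRCC6 and PARP1 were higher in all DOX samples than in all vehicle samples, so genes with these letters did not all lie on one side. A match of letters is a description of the promoter and does not show a site in use.

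Of the 38 genes, 3 of the 5 end joining genes had the highest mean levels, while LIG4 (8.33 scaled TPM) and XRCC4 (4.73) were far lower. XRCC6, which encodes Ku70, had a mean of 82.9 scaled TPM over the 6 samples, XRCC5, which encodes Ku80, 77.0, and PRKDC, the catalytic subunit of DNA-PK, 43.7. PARP1, the sensor of single-strand breaks, followed with 35.5, RBBP8 (CtIP, which starts end resection) with 23.9 and NBN, a subunit of the MRE11 complex, with 17.9. The sample ranges of XRCC6 (72.3 to 94.3) and XRCC5 (71.4 to 83.4) overlapped, as did those of PRKDC (37.0 to 48.4) and PARP1 (31.2 to 40.3). Each sample of XRCC5 lay above each of PRKDC, and each of PARP1 above each of RBBP8 (17.3 to 28.9). From MSH6 (15.5) down to XPC (3.75), means followed each other closely and neighbours in this order were within the spread of the samples. RNF8 and ATRIP (2.14 each) and MDC1 (1.70) were the lowest. The level of MDC1 is uncertain, because the gene length behind its TPM was 11.5 times the annotated exonic length relative to the median of the 38 genes, against 0.331 to 1.56 times for the other 37. Its place as the lowest gene is therefore not a comparison per annotated length, and its recovered reads (687 to 10102 per sample) were among the higher ones.

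**Figure D1:**
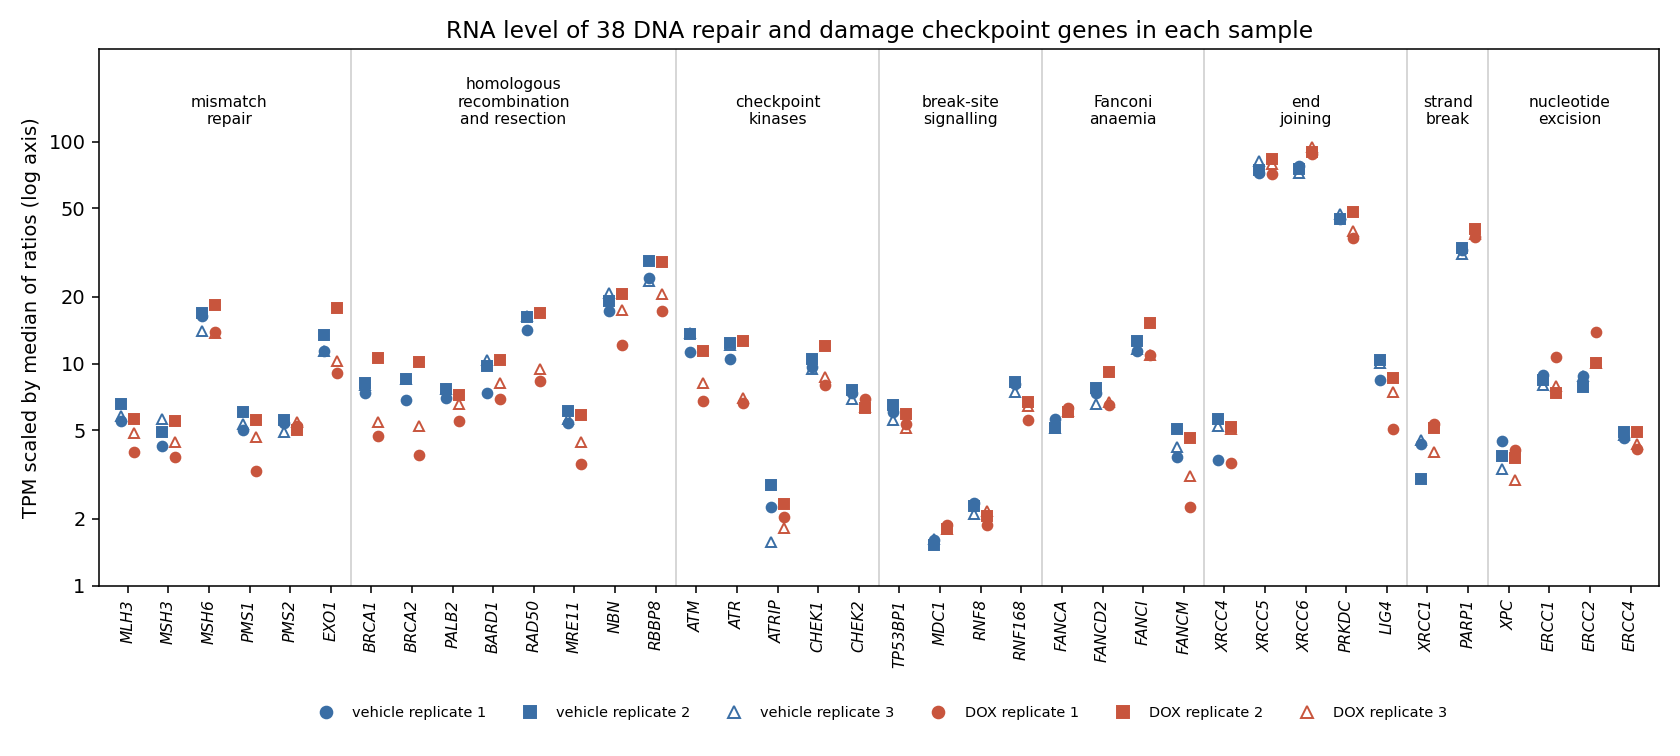
Scaled TPM (log axis) of the 38 genes in each sample, grouped by role, with vehicle in blue, DOX in red and the replicate number by symbol. XRCC6, XRCC5, PRKDC and PARP1 sit highest, and for most genes the DOX points spread more widely than the vehicle points, with DOX replicate 2 (square) often highest.

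Between DOX and vehicle, no gene of the list was called changed. The test was limma on log2(scaled TPM + 1) across all 11630 genes, and a call needed a change over 1.5-fold at an adjusted p below 0.05. The call was made for 0 of 38 genes in either direction, against 0% of all genes tested (0 lower and 0 higher). Before adjustment, 133 of all genes were lower and 138 higher at p below 0.05 and that fold, and voom on the recovered reads called 1 gene lower and 0 higher. The log2 fold changes (DOX minus vehicle) of the 38 genes ran from -0.52 (ATM) to 0.36 (ERCC2), 28 of them negative and 10 positive, with a median of -0.10 against 0.02 over all genes. The smallest adjusted p-value was 0.281. For 25 genes the 95% interval of the change lay inside 1.5-fold in both directions, for 11 it reached past 1.5-fold lower and for 2 past 1.5-fold higher. Because a pseudocount of 1 was added, these values understate the change of genes with low levels.

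At p below 0.05 before adjustment, 3 of the 38 genes were lower (ATM, RNF168 and LIG4), beside 7.74% of all genes, and 2 were higher (ERCC2 and XRCC6), beside 8.1% of all genes. These shares are close to or below those of all genes, so they are not a result about the list. Each DOX sample was under each vehicle sample for 1 gene (RNF168; 2.63% of 38, against 9.13% of all genes). Each was above them for 5 genes (XRCC6, PARP1, ERCC2, FANCA and MDC1; 13.2%, against 10.9% of all genes).

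**Figure D2:**
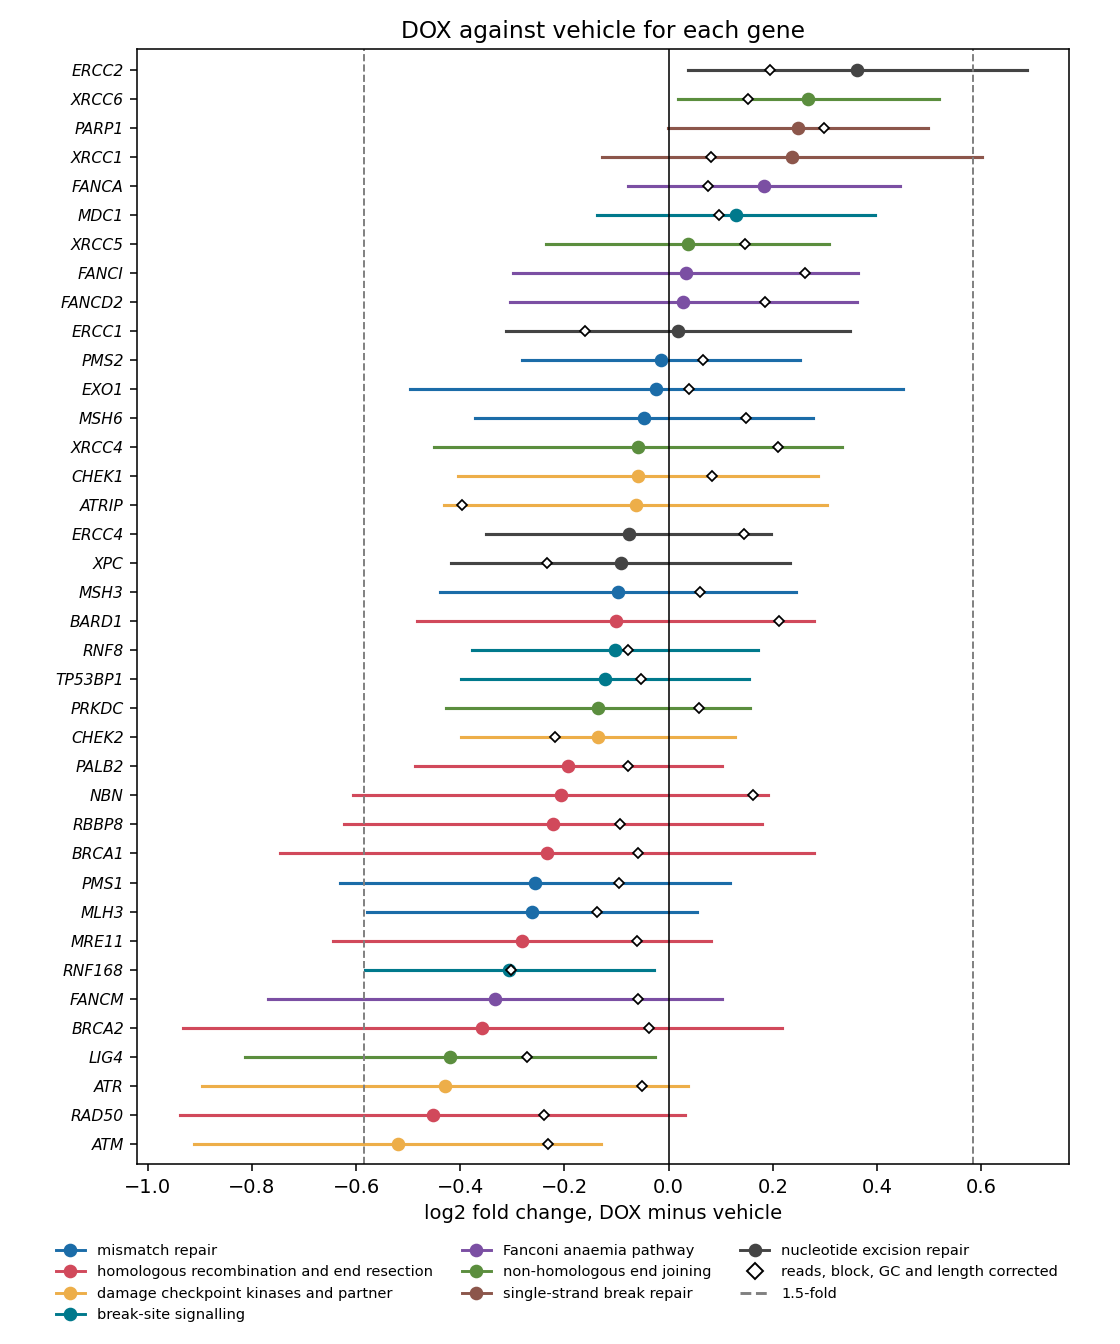
Log2 fold change of each gene, DOX minus vehicle, from limma on scaled TPM (filled points, bars are 95% intervals) and from voom on recovered reads with the replicate block and GC and length correction (open diamonds). Dashed lines mark 1.5-fold. No filled point lies past a dashed line, and at the lower end the diamonds of most genes sit nearer to 0 than the points.

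No mismatch repair gene passed the test. The list holds MSH6 and MSH3, partners of the mismatch-recognition dimers, PMS1, PMS2 and MLH3, subunits of the MutL dimers, and the exonuclease EXO1. All 6 log2 fold changes were negative on scaled TPM (those of MSH3, MSH6, PMS2 and EXO1 were at or above 0 after the GC and length correction described below), with a median of -0.07, and 0 of 6 had p below 0.05 before adjustment. MLH3 had 5.51, 6.57 and 5.79 scaled TPM with vehicle (replicates 1, 2 and 3, in this order here and below) and 4.02, 5.6 and 4.86 with DOX. DOX replicates 1 and 3 thus lay below all vehicle samples and DOX replicate 2 among them, giving -0.26 on the log2 scale (standard error 0.14; limma adjusted p = 0.369). MSH6 stood at 15.8 ± 1.58 with vehicle and 15.3 ± 2.59 with DOX, MSH3 at 4.95 ± 0.680 and 4.58 ± 0.865, and PMS1 at 5.48 ± 0.512 and 4.49 ± 1.15 scaled TPM (mean ± SD, n = 3). EXO1 stood at 12.1 ± 1.23 and 12.3 ± 4.69, with the wide DOX spread set by 17.7 in DOX replicate 2. PMS2 (5.30 ± 0.328 and 5.23 ± 0.225) is uncertain, since near-identical copies have counts of their own, such as PMS2CL with 6.30 to 17.3 TPM and PMS2P1 with 9.32 to 13.3 TPM. MSH6 shares 22.7% of its exonic bases with FBXO11 on the opposite strand, and how reads were assigned between overlapping genes is not given in the sources used here.

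On scaled TPM the homologous recombination and end resection genes had the lowest median of the 8 role groups, but after GC and length correction their median was -0.06 and that of the checkpoint genes was lower, at -0.20. All 8 log2 fold changes were negative on scaled TPM (those of NBN and BARD1 were positive after GC and length correction), with a median of -0.23, and 0 of 8 had p below 0.05 before adjustment. RAD50, which tethers broken ends with MRE11 and NBN (GRCh38 chr5:132556019-132646349, plus strand), had 14.1, 16.1 and 16.4 scaled TPM with vehicle and 8.38, 16.9 and 9.46 with DOX. DOX replicates 1 and 3 were far below every vehicle sample while DOX replicate 2 was above them all, giving a log2 fold change of -0.45 (standard error 0.22, adjusted p = 0.328 from limma). BRCA2, which acts on resected ends, also had DOX replicates 1 and 3 below and DOX replicate 2 above all vehicle samples, with 6.85, 8.52 and 8.49 against 3.86, 10.1 and 5.23 scaled TPM (log2 fold change -0.36, standard error 0.26). BRCA1, its partner upstream, had 7.40, 8.16 and 8.01 against 4.70, 10.5 and 5.47 (-0.23, standard error 0.23). In both BRCA genes, as in RAD50, the DOX samples stood on both sides of the vehicle samples, so the mean difference was smaller than the spread among DOX samples. The nuclease gene MRE11 stood at 5.72 ± 0.364 with vehicle and 4.61 ± 1.19 with DOX, NBN at 19.1 ± 1.81 and 16.7 ± 4.24, and RBBP8 at 25.6 ± 2.90 and 22.2 ± 5.95 scaled TPM (mean ± SD, n = 3). PALB2, which bridges BRCA1 and BRCA2, stood at 7.46 ± 0.399 and 6.43 ± 0.866, and BARD1, the obligate partner of BRCA1, at 9.17 ± 1.6 and 8.50 ± 1.74.

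ATM had the most negative log2 fold change of the 38 genes on scaled TPM, but not after GC and length correction (-0.24, with RNF168, RAD50, ATRIP and LIG4 lower) nor without DOX replicate 2, where RAD50 was lower. ATM, the kinase that answers double-strand breaks (GRCh38 chr11:108223044-108369102, plus strand), had 11.3, 13.6 and 13.7 scaled TPM with vehicle and 6.82, 11.4 and 8.19 with DOX. The groups overlapped only through DOX replicate 2, which lay just above vehicle replicate 1. The log2 fold change was -0.52 (standard error 0.18, unadjusted p = 0.0142, adjusted p = 0.281 from limma). ATR, the kinase that answers stalled replication, had 10.5, 12.4 and 12.2 against 6.63, 12.7 and 6.98, again with DOX replicate 2 above all vehicle samples (-0.43, standard error 0.21, adjusted p = 0.331 from limma). Its partner ATRIP stood at 2.23 ± 0.637 and 2.06 ± 0.255 scaled TPM (mean ± SD, n = 3), and shares 26.7% of its exonic bases with TREX1 on the same strand, so its level is uncertain. CHEK1, the kinase downstream of ATR, stood at 9.87 ± 0.537 and 9.56 ± 2.16, and CHEK2, downstream of ATM, at 7.30 ± 0.348 and 6.55 ± 0.341. All 5 log2 fold changes were negative on scaled TPM (that of CHEK1 was positive after GC and length correction), with a median of -0.14, and only that of ATM had p below 0.05 before adjustment.

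RNF168 was the one gene with all DOX samples below all vehicle samples. It encodes the ubiquitin ligase that marks chromatin at breaks (GRCh38 chr3:196468783-196503768, minus strand), and its promoter is printed above. Its levels were 8.07, 8.24 and 7.49 scaled TPM with vehicle and 5.56, 6.72 and 6.43 with DOX. The log2 fold change of RNF168 was -0.31 (standard error 0.12, unadjusted p = 0.0337, adjusted p = 0.290 from limma), and leaving out any single sample moved it no further than -0.35 or -0.24. MDC1, the scaffold that binds marked histones at breaks, had 1.61, 1.52 and 1.61 with vehicle and 1.88, 1.79 and 1.80 with DOX. The groups of MDC1 did not overlap, but the step was small (log2 fold change 0.13, standard error 0.12, adjusted p = 0.581 from limma). RNF8, the ligase upstream of RNF168, stood at 2.25 ± 0.137 and 2.03 ± 0.146 scaled TPM (mean ± SD, n = 3). TP53BP1, which shields ends from resection, stood at 6.04 ± 0.468 and 5.47 ± 0.404, and shares 28.8% of its exonic bases with TUBGCP4 on the opposite strand.

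The Fanconi anaemia genes were split. FANCM, the translocase that brings the Fanconi core complex to DNA, had 3.79, 5.09 and 4.21 scaled TPM with vehicle and 2.27, 4.62 and 3.13 with DOX. DOX replicate 2 was again inside the vehicle range and the other DOX samples below it (log2 fold change -0.33, standard error 0.20, adjusted p = 0.398 from limma). FANCA, a subunit of the core ubiquitin ligase, had 5.63, 5.12 and 5.14 against 6.29, 6.04 and 6.11. Its groups did not overlap, with the DOX samples higher (0.18, standard error 0.12, adjusted p = 0.433 from limma), and it shares 19.6% of its exonic bases with ZNF276 on the opposite strand. The ubiquitinated pair FANCD2 and FANCI, with log2 fold changes of 0.03 each, stood at 7.23 ± 0.587 and 11.9 ± 0.696 with vehicle and at 7.46 ± 1.5 and 12.3 ± 2.49 with DOX (mean ± SD, n = 3).

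In end joining, LIG4 and XRCC6 lay on opposite sides on scaled TPM, while both were negative on TPM as deposited (-0.81 and -0.17). LIG4, the ligase that seals the break (GRCh38 chr13:108207439-108218368, minus strand), had 8.40, 10.4 and 10.1 scaled TPM with vehicle and 5.09, 8.64 and 7.42 with DOX. DOX replicate 2 lay just above vehicle replicate 1 and the other DOX samples below all vehicle samples, with a log2 fold change of -0.42 (standard error 0.18, unadjusted p = 0.0387, adjusted p = 0.296 from limma). XRCC6 (GRCh38 chr22:41621163-41664048, plus strand) had 77.4, 75.6 and 72.3 with vehicle and 87.6, 90.0 and 94.3 with DOX. All DOX samples of XRCC6 were above all vehicle samples (0.27, standard error 0.11, unadjusted p = 0.0379, adjusted p = 0.296 from limma). Its Ku partner XRCC5 had 71.8, 74.2 and 82.1 against 71.4, 83.4 and 79.3, with overlapping groups (0.04, 95% interval -0.24 to 0.31). PRKDC stood at 45.6 ± 1.44 and 41.7 ± 5.94 scaled TPM (mean ± SD, n = 3). XRCC4, the scaffold of LIG4, stood at 4.85 ± 1.03 and 4.61 ± 0.902.

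Both genes of single-strand break repair had higher means with DOX on scaled TPM, and lower ones on TPM as deposited. PARP1 (GRCh38 chr1:226360210-226408154, minus strand) had 32.5, 33.2 and 31.2 scaled TPM with vehicle and 37.2, 40.3 and 38.2 with DOX, with no overlap between the groups. Its log2 fold change was 0.25 (standard error 0.11, unadjusted p = 0.0506, adjusted p = 0.315 from limma). XRCC1, the scaffold that PARP1 recruits, had 4.35, 3.02 and 4.53 against 5.35, 5.15 and 3.99, with overlapping groups (0.24, standard error 0.16).

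ERCC2 had the largest positive change of the list on scaled TPM, and a log2 fold change of -0.05 on TPM as deposited. It encodes the XPD helicase of TFIIH, which opens DNA around a lesion (GRCh38 chr19:45349837-45370918, minus strand), and had 8.83, 7.87 and 8.79 scaled TPM with vehicle and 13.8, 10.0 and 10.1 with DOX. The groups did not overlap, and DOX replicate 1 stood above the other DOX samples. The log2 fold change of ERCC2 was 0.36 (standard error 0.15, unadjusted p = 0.0326, adjusted p = 0.288 from limma), and 0.22 at the lowest with 1 sample left out. The other nucleotide excision genes differed less. XPC, which finds the lesion, stood at 3.90 ± 0.564 and 3.60 ± 0.548, and the cutting nuclease subunits ERCC1 and ERCC4 at 8.44 ± 0.441 and 4.75 ± 0.146 with vehicle and at 8.65 ± 1.76 and 4.46 ± 0.416 with DOX (mean ± SD, n = 3).

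For many of the 38 genes the DOX samples differed widely among themselves. DOX replicate 2 was the highest of the 3 DOX samples for 28 genes (73.7%, against 35.9% of all genes). DOX replicate 1 was the lowest DOX sample for 26 genes (68.4%, against 41.3% of all genes). DOX replicates 1 and 3 were both under every vehicle sample for 20 genes (52.6%), against 21.6% of all genes, and above them for 5, against 20.5% of all genes. These positions describe the libraries, since the samples were singled out after their values were seen. Without DOX replicate 2, limma still called 0 genes of the list, and 12 were lower at p below 0.05 before adjustment, beside 13.5% of all genes, and 2 higher, beside 10.5%. The log2 fold changes were then -0.74 for RAD50, -0.71 for ATM, -0.70 for ATR and BRCA2, -0.56 for LIG4 and -0.54 for BRCA1 and FANCM. The smallest adjusted p-value was 0.0617 from limma, and the median of the list was -0.19. Across the 38 genes these fold changes correlated with GC content (Pearson r = 0.76, against 0.71 with all samples). No fit without DOX replicate 2 was corrected for GC content, so these values are not estimates of a larger decrease. Summed levels of 12 cell cycle genes, MKI67 and PCNA among them, were 646 scaled TPM in DOX replicate 2 and 472 to 523 in the other 5 samples. Their part in the result was not tested.

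GC content moved with the fold changes. The 38 genes have a median exonic GC content of 42.9%, against 47.0% over the 10818 tested genes with a GC content. Values by GC content for all genes cover these 10818. The median exonic length was 7597 bases against 5500.5. Across the 38 genes, which share the same libraries, the log2 fold change correlated with GC content (Pearson r = 0.71, Spearman rho = 0.68), and across 10818 genes r was 0.66. With log2 exonic length r was -0.35. All 9 genes under 40% GC (among them ATM, ATR, BRCA2, FANCM and MRE11) had negative values, with a median of -0.28, close to the median of -0.24 for all genes of that class. From 40% to 45% the median was -0.10 for the 17 genes of the list and -0.10 for all genes, from 45% to 50% it was -0.01 for 5 genes of the list and 0.03 for all, and from 50% upwards, where ERCC2, XRCC1 and FANCA lie, 0.13 for 7 genes and 0.19 for all. The difference of a single sample from the others of its group correlated with GC content to unequal degrees, with r = 0.86, -0.68 and -0.22 for DOX replicates 1, 2 and 3 and 0.78, -0.50 and -0.34 for vehicle replicates 1, 2 and 3.

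**Figure D3:**
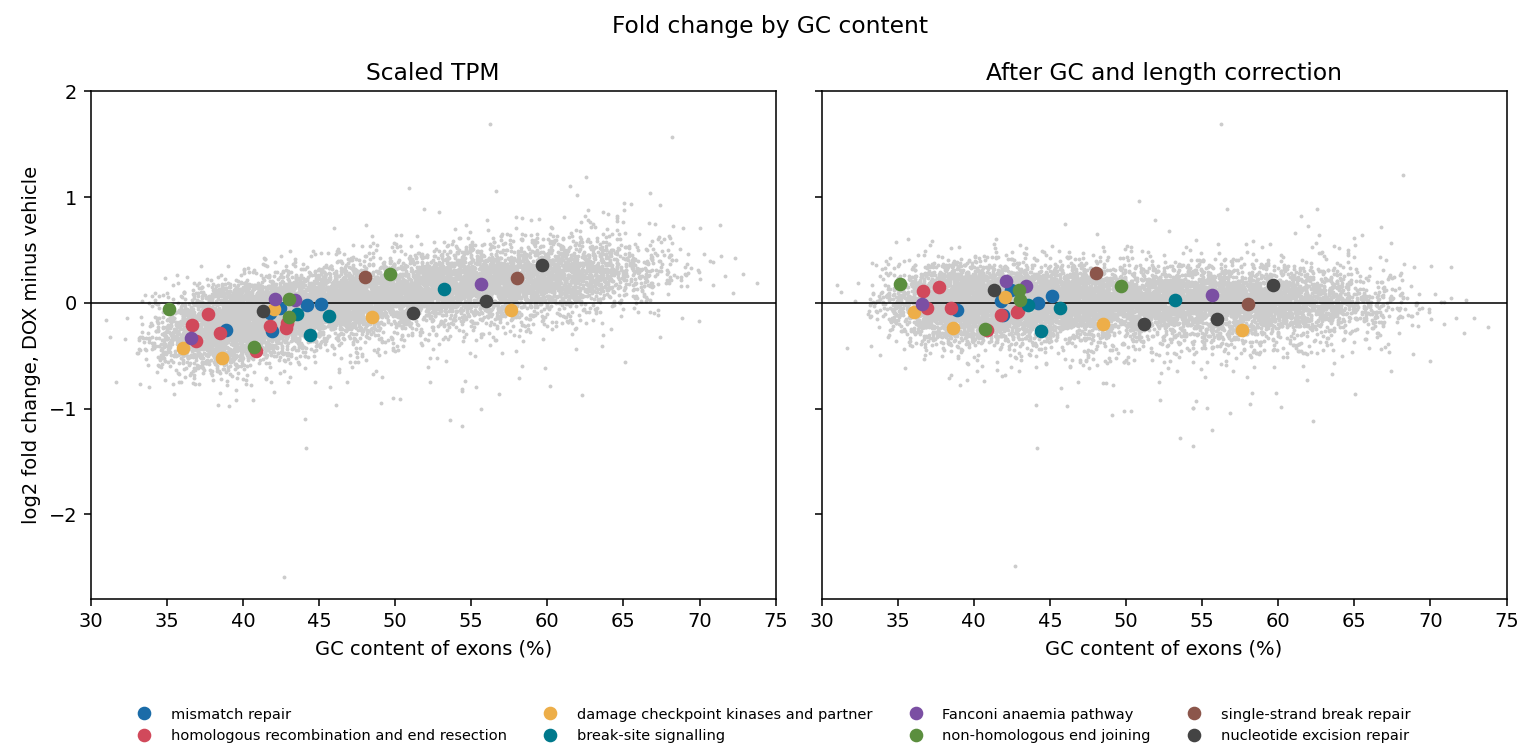
Log2 fold change, DOX minus vehicle, against exonic GC content (%) for the 10818 tested genes with a GC content (grey) and the 38 genes (coloured by role), on scaled TPM (left) and after GC and length correction (right). On the left the 38 genes follow the slope of the grey points (r = 0.71), and on the right they spread around 0 (r = -0.03).

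Once GC content and length were corrected in each sample, the list had a median log2 fold change of -0.01, and r with GC content was -0.03. The median was 0.01 for all 10818 genes with a GC content. ATM was then at -0.24, ATR at -0.09, RAD50 at -0.26, BRCA2 at -0.05, RNF168 at -0.26, LIG4 at -0.25, ATRIP at -0.25, XRCC6 at 0.16, PARP1 at 0.28 and ERCC2 at 0.17. ATR, BRCA2 and FANCM (-0.01) thus came near 0, while ATRIP, at -0.06 on scaled TPM, moved further from it, to -0.40 in voom with the block and the same correction (adjusted p = 0.253 from voom, 0.107 to 0.992 over all alternative fits). The correction takes out of each sample any trend with GC content and length, so the r near 0 follows largely from it. Any difference between groups that goes along with GC content or length is taken out too. The part of base composition in the differences between groups was not tested.

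**Figure D4:**
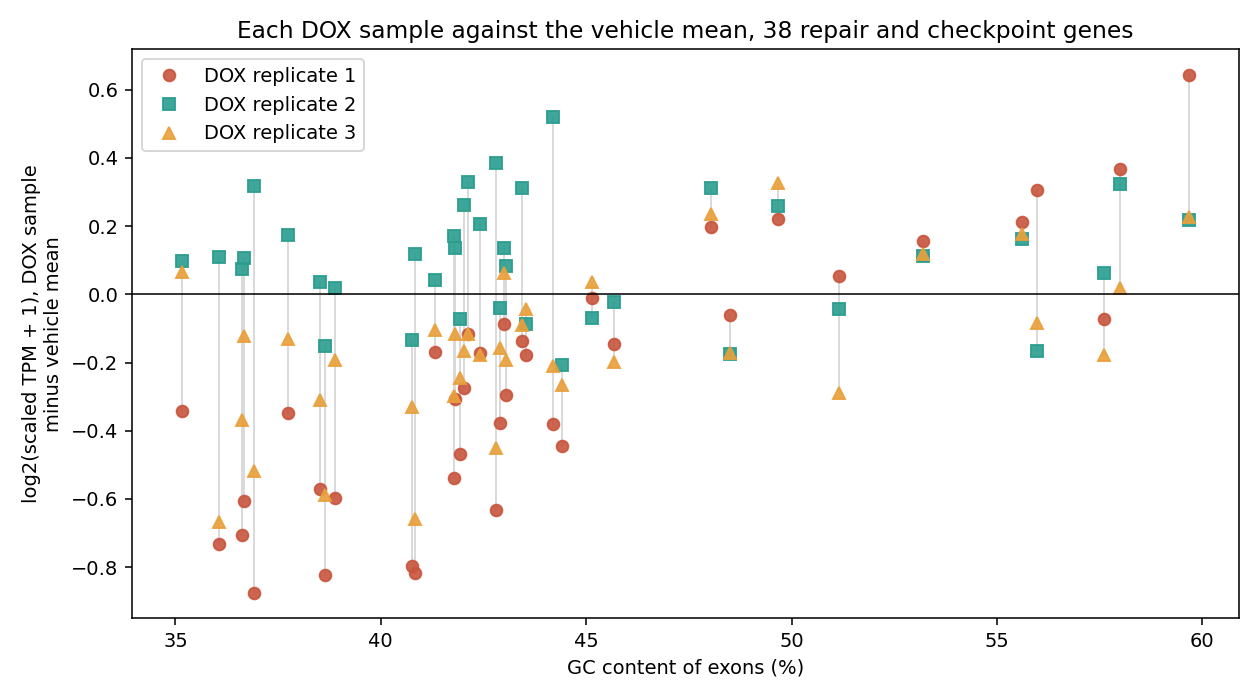
Difference of each DOX sample from the vehicle mean on the log2(scaled TPM + 1) scale, for the 38 genes placed by exonic GC content (%), with a grey line joining the DOX samples of a gene. Below 45% GC, DOX replicate 2 (squares) sits mostly near or above 0 and DOX replicate 1 (circles) mostly lowest, and above 50% the samples lie closer together.

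The scale and the fit decided whether any gene of the list was called. On TPM as deposited, where all genes had a median log2 fold change of -0.35, all 38 genes were negative with a median of -0.46, the 10 that were positive on scaled TPM included. There 1 gene was called lower, ATM (-0.92, adjusted p = 0.0498 from limma), beside 2.98% of all genes lower and 0.0257% higher. With the replicate number as a block on that scale 13 of the 38 were called lower and 0 higher, beside 19% and 0.129% of all genes, and these 13 were ATM, ATR, LIG4, RAD50, BRCA2, RNF168, FANCM, RBBP8, MRE11, MLH3, NBN, PMS1 and BRCA1. On scaled TPM the block gave 0 calls, with a smallest adjusted p-value of 0.0608 from limma. With voom on recovered reads and the block, 0 of the 38 passed both limits, beside 2.34% of all genes lower and 1.37% higher. At an adjusted p below 0.05 and any fold, that fit had 4 genes lower, beside 8.64% of all genes, and 1 higher, beside 5.37%. They were ATM (log2 fold change -0.58, adjusted p = 0.0138 from voom), LIG4 (-0.49, 0.0235), RNF168 (-0.38, 0.0420) and FANCM (-0.44, 0.0473), and ERCC2 (0.43, 0.0423). Over all alternative fits the adjusted p-value ran from 0.000165 to 0.729 for ATM, 0.000813 to 0.729 for LIG4, 0.00400 to 0.729 for RNF168, 0.00397 to 0.981 for FANCM, 0.0423 to 0.898 for ERCC2 and 0.0879 to 0.729 for PARP1. With GC content and length corrected in voom with the block, none of the 38 kept an adjusted p below 0.05. The smallest was 0.126 from voom (PARP1, 0.30). That fit called 0 of the 38 in either direction, beside 10 lower and 1 higher of all 10818 genes.

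Other genes of the same pathways, 99 genes in 7 lists, were set beside the 38. Of these, 94 could be tested and 0 were called in either direction. At p below 0.05 before adjustment, 1 of the 94 was lower and 9 were higher, beside 7.74% and 8.1% of all genes. Of their log2 fold changes, 42 were negative and 52 positive, and the median was 0.03. The other homologous recombination genes (23 tested) had a median of -0.03, the other Fanconi genes (13) 0.01, the other end joining genes (6) 0.13, the other nucleotide excision genes (13) 0.04, the other base excision and single-strand break genes (16) 0.16, the other checkpoint genes (13) -0.08 and the translesion synthesis genes (10) -0.17. The difference between the 8 homologous recombination genes described above (-0.23) and the 23 others was not tested, and after GC and length correction the medians were -0.06 and 0.09.

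**Figure D5:**
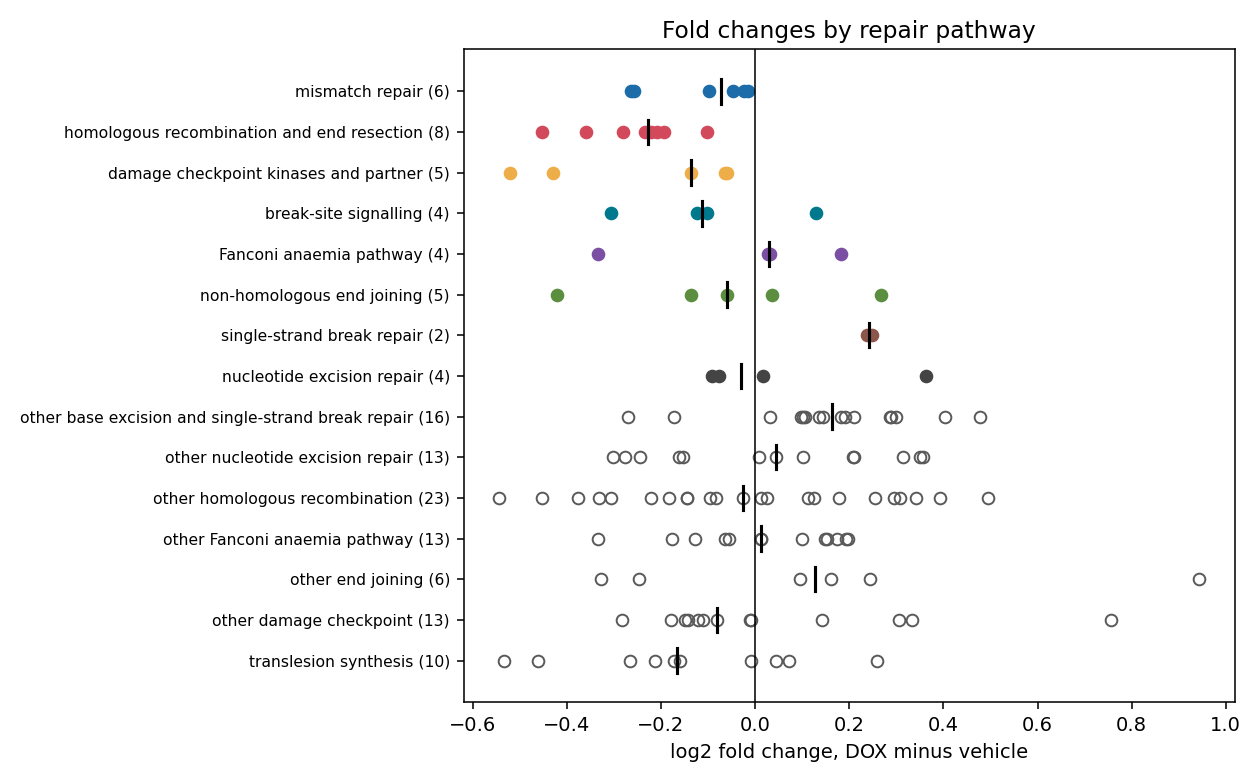
Log2 fold changes, DOX minus vehicle, by role group of the 38 genes (filled) and by list of other repair genes (open), with the number of genes tested in brackets and the median as a black bar. All 8 homologous recombination genes of the list lie below 0, while the 23 other genes of that pathway lie on both sides with a median of -0.03.

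PAXX, an end joining factor that binds Ku, had the largest change of these lists, with 8.84, 5.48 and 3.01 scaled TPM with vehicle and 13.9, 10.4 and 9.74 with DOX. The groups of PAXX did not overlap (log2 fold change 0.94, standard error 0.28, unadjusted p = 0.00686, adjusted p = 0.281 from limma), though its reads ran as low as 13 in a sample. H2AX, the histone phosphorylated at breaks and listed under its older symbol, had 17.0, 9.59 and 6.02 against 23.6, 19.0 and 12.1 scaled TPM (0.76, standard error 0.32), with overlapping groups. REV3L, the catalytic subunit of translesion polymerase zeta, had 8.03, 9.6 and 9.48 against 4.21, 8.67 and 5.56 (-0.53, standard error 0.21), with DOX replicate 2 alone inside the vehicle range. These 3 genes were called by voom on recovered reads with the block, a fit that called 2.34% of all genes lower and 1.37% higher. Once GC content and length were corrected in that fit, 0 of the 93 other repair genes with a GC content were called. In the checkpoint list that holds H2AX, 12 of the 13 tested genes had a GC content. The corrected fit may thus not have included H2AX, and the loss of its call is not shown. BABAM1, a subunit of the BRCA1-A complex, was at 0.39 (unadjusted p = 0.00826 from limma) and XRCC3 at 0.50, while SMC5 was at -0.54. In excision repair, the glycosylase genes MPG and SMUG1 were at 0.48 and 0.40 and TDG at -0.27, the XPC partner CETN2 at 0.35, and UVSSA at -0.28. The Fanconi genes FANCL, FANCG and SLX4 were at -0.33, 0.20 and 0.17, the end joining genes DCLRE1C and NHEJ1 at -0.33 and 0.24, and the fork and cycle genes TIMELESS and CDC25A at 0.31 and 0.33. The translesion genes POLK and REV1 were at -0.46 and -0.21.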

How the data were processed

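RNA-seq was analysed in 3 vehicle and 3 DOX samples of DU-145/tet-XISTshRNA cells, grouped and numbered by their labels, with the days of treatment taken from the paper. Total RNA was isolated (the labels name a column-based kit, the paper Trizol), and libraries were made with TruSeq Stranded mRNA. The authors aligned reads with STAR to GRCh38 (hg38) and deposited TPM per gene symbol, which sums to 1000000 in each sample. Versions of their tools, and how reads were counted and by which strand, are not given in the sources used here. From the authors' DESeq2 table only the mean normalized count per gene (the authors' value) was used; its fold changes, errors and p-values were not used.

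TPM was scaled by the median of ratios (factors 0.686 to 1.40), and genes with a mean of at least 1 scaled TPM were tested by limma 3.58.1 (R 4.3.3, lmFit and eBayes with trend, no block) on log2(scaled TPM + 1). Benjamini-Hochberg adjustment ran over 11630 genes. Reads were recovered from TPM and the mean normalized counts, and 98.962% of 22544 values under 20 reads were whole within 0.05, against 10% by chance. Voom on these reads was an alternative. No pair of samples was identical (0 pairs). Both fits were run on simulated data with 2-fold changes. Without the block, limma recovered 180 of 196 changed genes with 9 false calls, and voom 192 of 200 with 4. These simulated data held no trend with GC content and the same dispersion for every gene, so they do not measure the power in the real samples. Coordinates, GC content and exonic length came from GENCODE 44 on GRCh38, matched for 87.2% of symbols, and the correction used splines with 5 degrees of freedom in each sample. Python 3.11.15, pandas 2.3.3, SciPy 1.17.1 and matplotlib 3.10.9 were used for tables, exact permutation tests and figures.

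As a check of pairing, each sample's deviation from its group was compared between vehicle and DOX samples of the same number. Across genes r was 0.56, 0.26 and 0.19 for replicates 1, 2 and 3, and 0.17, 0.03 and 0.15 after GC and length correction. Between samples of unlike number r ran from -0.42 to 0.22, and from -0.26 to 0.09 after that correction. Vehicle replicate 2 with DOX replicate 3 (0.22) thus exceeded the matched replicate 3. After correction, vehicle replicate 1 with DOX replicate 2 (0.09) exceeded the matched replicate 2. The pairing rests on these correlations alone, since no label gives the meaning of a number.

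The members and lists were chosen with earlier results of these data known. All 38 genes are named. Values per sample are given for the gene of each role with the largest change and for genes whose groups did not overlap, and others with such values (BRCA1, BRCA2, ATR, XRCC5 and XRCC1) were chosen after their values were seen. From each other list the 3 genes with the smallest p-values are named, except for 1 that is not reported here.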

Additional observations from a re-analysis of the deposited data

How the results depend on the processing

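With 0 genes of the list called on scaled TPM, the count stayed at 0 in both directions with the replicate block, a pseudocount of 0.1, no filter on low values, GC and length correction with or without the block, voom on recovered reads in its 3 forms, and each sample left out in turn. On TPM as deposited 1 gene was called lower, and 13 with the replicate block, where the median log2 fold change of the list was -0.46 in both fits. Leaving out each sample gave medians from -0.19 to -0.04 and 0 calls. The block on scaled TPM left each log2 fold change as it was and changed no call. Depth limits the genes with the fewest reads, ATRIP, XRCC1 and XRCC4, most, through vehicle replicate 3.

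Some genes changed sign. TPM as deposited, with or without the block, gave -0.38 for ERCC1, -0.05 for ERCC2, -0.20 for FANCA, -0.36 for FANCD2, -0.38 for FANCI, -0.15 for MDC1, -0.19 for PARP1, -0.13 for XRCC1, -0.40 for XRCC5 and -0.17 for XRCC6, where the median of all genes was itself -0.35. GC and length correction, with or without the block, gave 0.15 for BARD1, 0.05 for CHEK1, -0.15 for ERCC1, 0.12 for ERCC4, 0.00 for EXO1, 0.02 for MSH3, 0.12 for MSH6, 0.12 for NBN, 0.07 for PMS2, 0.02 for PRKDC, -0.01 for XRCC1 and 0.18 for XRCC4. Voom gave 0.00 for FANCD2. Voom with GC content, length and the block in the fit gave 0.21 for BARD1, 0.08 for CHEK1, -0.16 for ERCC1, 0.14 for ERCC4, 0.04 for EXO1, 0.06 for MSH3, 0.15 for MSH6, 0.16 for NBN, 0.07 for PMS2, 0.06 for PRKDC and 0.21 for XRCC4. With 1 sample left out, values ran from -0.22 to 0.07 for ATRIP, -0.24 to 0.02 for BARD1, -0.22 to 0.05 for CHEK1, -0.13 to 0.11 for ERCC1, -0.29 to 0.15 for EXO1, -0.11 to 0.11 for FANCD2, -0.12 to 0.11 for FANCI, -0.21 to 0.01 for MSH3, -0.17 to 0.02 for MSH6, -0.06 to 0.01 for PMS2, -0.17 to 0.01 for XPC, -0.21 to 0.08 for XRCC4 and -0.01 to 0.10 for XRCC5. The cause was not tested in any of these.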

Other observations

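Of the other repair genes, 5 were under the minimum level for the fit across genes. The TFIIH subunit gene GTF2H5 had 1.15, 1.19 and 0.899 scaled TPM with vehicle and 0.684, 0.838 and 0.815 with DOX, with no overlap (exact permutation test, two-sided, p = 0.100, the smallest that 3 samples against 3 allow). The glycosylase genes MUTYH (0.229 to 0.795 with vehicle and 0.710 to 0.901 with DOX) and NEIL1 (0.542 to 0.689 and 0.285 to 0.668) had overlapping groups. ERCC5, the nuclease gene of nucleotide excision repair, was at 0.00888 to 0.0693 in the 6 samples, with 1 to 20 reads, and the TFIIH gene GTF2H2 had 0 to 4 reads. The levels of ERCC5 and GTF2H2 are uncertain, because how reads were assigned between overlapping genes or near-identical copies is not given in the sources used here. Whether reads of ERCC5 and GTF2H2 were lost in this way was not tested, so their low values do not show that the cells barely express them.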
